A study of Mus musculus with 25 samples.

Results

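Txnip, the arrestin-domain genes Arrdc2, Arrdc3 and Arrdc4, and the glucose-sensing transcription factor genes Mlxip, Mlxipl and Mlx were followed through a mouse hypothalamus experiment and a brain endothelial cell experiment. The 7 genes were chosen by name, with earlier results of these data known. All 7 were listed in both count tables, among 45706 genes in the hypothalamus table and 44674 in the cell table. In GRCm38, with GENCODE M21, Txnip (ENSMUSG00000038393) lies at chr3:96557957-96561883, Arrdc3 (ENSMUSG00000074794) at chr13:80883384-80896042 and Mlx (ENSMUSG00000017801) at chr11:101087277-101092207, all on the plus strand. Mlxip (ENSMUSG00000038342) at chr5:123394798-123457932 and Mlxipl (ENSMUSG00000005373) at chr5:135089890-135138382 are also on the plus strand, while Arrdc2 (ENSMUSG00000002910) at chr8:70835129-70839720 and Arrdc4 (ENSMUSG00000042659) at chr7:68736995-68749241 are on the minus strand. All 7 passed the filter on low counts in every hypothalamus comparison. In the cells 6 of 7 passed, and Mlxipl, with 1 to 9 counts per library, did not.

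The hypothalamus table held 16 bacTRAP libraries, in which RNA bound to a GFP-tagged ribosomal protein is precipitated (IP) and set beside RNA of the whole lysate (INPUT). The second table came from cEND, an endothelial line from mouse brain, in 9 libraries exposed to WZB117, which blocks glucose transport by GLUT1, or to its vehicle DMSO. All mice carried the genotype Slco1c1Cre+/-;ROSA26lSlL10aGFP+/-, in which the Slco1c1 promoter drives a tamoxifen-inducible Cre and Cre switches on the tagged L10a, so that control animals carry the transgenes and received tamoxifen as well. Groups were HFD IP, CD IP, HFD INPUT and CD INPUT, with 4 pools each, and in the cells DMSO, 0.5 µM and 10 µM WZB117, with 1 library each at passages 12, 14 and 18.
HFD is a high-fat diet and CD the control diet, each fed for 3 days to animals aged 12 weeks, which had received tamoxifen 3 weeks before the diets began. Each pool combined 4 mice, 2 female and 2 male. All cEND libraries come from 1 line, those of a passage may share a culture, and the sources used here do not give how long WZB117 was applied. The p-values therefore measure the spread between these libraries.

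Alpha-arrestins are membrane adaptors with an arrestin fold and PPXY motifs that bring NEDD4-family ubiquitin ligases to cargo proteins, which are then internalised. Txnip, the best known of them, binds thioredoxin and promotes the uptake of GLUT1 from the cell surface, and Arrdc4 has a related action on glucose transport, so that both restrain glucose entry. Glucose 6-phosphate sends the MondoA protein, encoded by Mlxip, or its relative ChREBP, encoded by Mlxipl, to the nucleus, where each pairs with Mlx on carbohydrate response elements, and Txnip and Arrdc4 are the classic MondoA targets. Arrdc3 has been linked, in mice, to body weight. Arrdc2 is the least described of the group. In brain capillaries GLUT1 is the main route by which glucose crosses the blood-brain barrier.

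The 250 bases before the RefSeq start (GRCm38.p6) are shown for the genes on which the results turn. Txnip and Arrdc4 are shown as the glucose-responsive pair, and Arrdc3 as the gene that moved with the inhibitor. Capitals mark matches to CACGNG (a broad E-box; a carbohydrate response element is built from a pair of such boxes), to CCAAT and to GTAAACA (a forkhead motif) on either strand.
Txnip, chr3:96557707-96557956, plus strand: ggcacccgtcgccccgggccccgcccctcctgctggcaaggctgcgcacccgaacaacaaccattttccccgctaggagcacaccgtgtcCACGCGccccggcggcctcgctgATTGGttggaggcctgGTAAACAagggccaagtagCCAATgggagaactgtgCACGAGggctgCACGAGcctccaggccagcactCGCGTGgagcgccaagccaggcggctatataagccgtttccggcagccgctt
Arrdc4, chr7:68749239-68749488, minus strand: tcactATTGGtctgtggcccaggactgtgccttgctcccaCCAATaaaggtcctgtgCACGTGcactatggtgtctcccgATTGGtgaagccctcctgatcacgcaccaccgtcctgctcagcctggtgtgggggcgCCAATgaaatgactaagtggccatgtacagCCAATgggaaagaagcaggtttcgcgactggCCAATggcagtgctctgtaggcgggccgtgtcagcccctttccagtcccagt
Arrdc3, chr13:80883134-80883383, plus strand: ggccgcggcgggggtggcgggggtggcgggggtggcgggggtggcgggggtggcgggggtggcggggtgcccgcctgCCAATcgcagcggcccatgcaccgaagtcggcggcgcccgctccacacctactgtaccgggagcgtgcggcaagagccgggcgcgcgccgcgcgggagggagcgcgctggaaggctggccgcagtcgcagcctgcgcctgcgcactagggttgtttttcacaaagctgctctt
Motifs were searched on both strands in windows that reached from 250 bases before to 50 bases after the start, in all 32851 RefSeq mouse promoters, and all 7 genes matched this table. The Txnip window held 4 broad E-boxes, against 27.5 percent of all promoters with at least 1. A pair of them, at positions -85 and -74 from the start, formed the 17-base arrangement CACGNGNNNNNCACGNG, read in Txnip as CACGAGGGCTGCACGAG and present in 16 promoters, or 0.0487 percent. Txnip also had 2 matches to CCAAT, present in 37.4 percent of promoters, and 1 forkhead match at position -121, present in 3.65 percent. Arrdc4 held 1 palindromic E-box, CACGTG, at position -193, which is also a case of the broad E-box, and 6 matches to CCAAT. The palindromic E-box was present in 7.15 percent of promoters, and Mlx (position -40) and Mlxipl (position -98) had 1 each as well. None of the 3 windows listed for Arrdc3 held the letters of a broad E-box, Arrdc2 held 1 at position -77 and Mlxip none. These are letter matches and not measured binding.

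Total counts ran from 27886932 to 42751943 per hypothalamus library and from 27344505 to 41253473 per cEND library, and levels are given as CPM (counts scaled to library size with TMM factors). Both sample types carry the label endothelial cell. In IP libraries the 10 endothelial markers summed to 150.4 to 198.3 CPM with HFD and 151.1 to 214.2 CPM with CD, above INPUT at 25.4 to 32.15 CPM with HFD and 25.97 to 32.9 CPM with CD. The largest part was Slco1c1, whose promoter drives the Cre, at 86.0 CPM on average in HFD IP and 99.1 CPM in CD IP. The 9 astrocyte markers summed to far more in the same IP libraries, 44710 to 49220 CPM with HFD and 47940 to 56820 CPM with CD, against 5780 to 6490 CPM in HFD INPUT and 5750 to 7751 CPM in CD INPUT. In cEND cells the endothelial markers summed to 3867 to 5395 CPM over the 9 libraries, while Slco1c1, the promoter gene of the mouse line, was at 0 in all of them. In bulk libraries such as these, fewer cells of a type and less RNA per cell cannot be told apart.

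Levels of different genes were set side by side per kilobase of annotated exon. In cEND cells Txnip was the highest of the 7 genes, at 79.4 ± 24.4 CPM per kb with DMSO (SD, n = 3), above 96.5 percent of the genes tested. Mlx followed at 17.3 ± 1.32 CPM per kb and Arrdc3 at 12.8 ± 4.78 CPM per kb, ranges of 15.89 to 18.47 and 7.76 to 17.28 that overlapped. Mlxip, at 3.39 ± 0.72 CPM per kb, was lower in every DMSO library than Arrdc3, and Arrdc2 (1.84 ± 0.48 CPM per kb) and Arrdc4 (1.70 ± 0.75 CPM per kb) came next without being separated from each other by their spread. Mlxipl was last, at 0.016 ± 0.009 CPM per kb. At 10 µM WZB117 Arrdc3 averaged 32.4 CPM per kb (26.0 to 41.4), clear of Mlx at 15.8 ± 0.92 CPM per kb in every library. The cells held RNA of the MondoA pair of sensors, Mlxip and Mlx, with next to none for ChREBP.
In the hypothalamus the order was flatter. In CD IP, Mlx (5.90 ± 0.47 CPM per kb), Txnip (5.62 ± 1.05) and Arrdc3 (4.74 ± 0.41) were the highest and neighbours in that order overlapped. In HFD IP the order was Arrdc3 (5.86 ± 0.42 CPM per kb), Mlx (5.73 ± 0.29) and Txnip (3.60 ± 0.91), with Txnip below the other 2 in every library. In INPUT, Arrdc3 was the highest, at 6.40 ± 0.29 CPM per kb with HFD and 7.05 ± 0.43 CPM per kb with CD, and Mlx came next at 4.70 ± 0.38 and 4.26 ± 0.13 CPM per kb in the same diets. Txnip came after Mlxip in INPUT, at 2.50 ± 0.33 CPM per kb with HFD and 2.49 ± 0.16 CPM per kb with CD (SD, n = 4 for each hypothalamus value). Mlxipl was the lowest of the 7 in all 4 groups, at 0.33 to 0.48 CPM per kb on average, and Arrdc2 and Arrdc4 stayed between 0.64 and 1.32 CPM per kb. The table of cells and that of hypothalamus were scaled apart, so no test runs across them.

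RNA of Txnip, Arrdc2 and Mlx was more abundant on the tagged ribosomes than in the whole lysate. RNA of Mlxip and Arrdc3 was less abundant on them. The comparison of IP with INPUT asks which of the genes were enriched with the tagged ribosomes, across both diets. Of the 7 genes 5 passed the adjusted p of 0.05, 3 higher in IP and 2 lower, where 83.8 percent of all genes tested passed, 41.6 percent higher and 42.2 percent lower. The count is therefore near the background, and the direction of each gene is what it adds. The median over the 7 genes was -0.01 on the log2 scale, against -0.02 over all genes.
Txnip reached 13.9, 7.80, 13.2 and 10.1 CPM in the HFD IP pools and 13.6, 16.1, 20.2 and 20.3 CPM in the CD IP pools, against 8.18, 7.62, 6.49 and 8.93 CPM in HFD INPUT and 7.75, 7.15, 7.85 and 8.38 CPM in CD INPUT. Every IP library lay above the INPUT library of its number (8 of 8), although the lowest HFD IP pool fell within the INPUT range. The labels do not say that IP and INPUT libraries of a number come from the same pool, so counts and ratios by number rest on an assumed match. Deviations of same-numbered libraries correlated at r = 0.06 to 0.28 (median 0.20). For different numbers within a diet r was -0.21 to 0.12 (median -0.06). The log2 fold change was 0.85 ± 0.14 (SE; edgeR's quasi-likelihood test with Benjamini-Hochberg adjustment, adjusted p = 2.6e-05). Mlx, the shared partner of both sensors, had 10.9 to 12.7 CPM in IP, against 8.12 to 10.2 CPM in INPUT, with no overlap, and rose by 0.38 ± 0.06 on the log2 scale (adjusted p = 4.4e-06). Psmc3ip overlaps the 3' end of Mlx on the other strand, and had 8.40 to 10.3 CPM in HFD IP and 6.80 to 8.58 CPM in CD IP, against 3.29 to 3.99 CPM in HFD INPUT and 3.72 to 3.93 CPM in CD INPUT. Whether the authors counted by strand was not given in the sources used here, so the part of Psmc3ip in the Mlx value was not tested.
Mlxip, the MondoA gene, had 12.6 to 16.1 CPM in IP, against 21.3 to 24.6 CPM in INPUT. The fractions did not overlap, as was the case for 59.9 percent of all genes and for 2 of these 7, Mlxip and Mlx. Mlxip fell by 0.71 ± 0.06 on the log2 scale in IP (adjusted p = 6.6e-12), so that the sensor and its partner moved in opposite directions between the fractions. Mlxipl, the ChREBP gene, had 1.29 to 3.22 CPM in IP and 1.85 to 2.73 CPM in INPUT, and its difference of -0.01 ± 0.15 had a 95 percent interval of -0.31 to 0.29.
Among the other arrestin-domain genes, Arrdc3 had 26.4 to 39.9 CPM in IP, against 38.4 to 47.9 CPM in INPUT. It fell by 0.35 ± 0.07 (adjusted p = 4.8e-05), lower in 8 of 8 pairs of libraries with the same number. Arrdc2 rose by 0.43 ± 0.11 (adjusted p = 0.00099), higher in 7 of 8 pairs. Arrdc4 differed by -0.17 ± 0.08 (adjusted p = 0.052), higher in 2 of 8 pairs. It passed with DESeq2 (adjusted p = 0.028), with RLE factors, and without HFD IP pool 4, CD IP pool 1, HFD INPUT pool 4 or CD INPUT pool 3, and over 20 alternatives its adjusted p ran from 0.022 to 0.18. The arrestin-domain genes thus did not move as a block between the fractions.

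**Figure D1:**
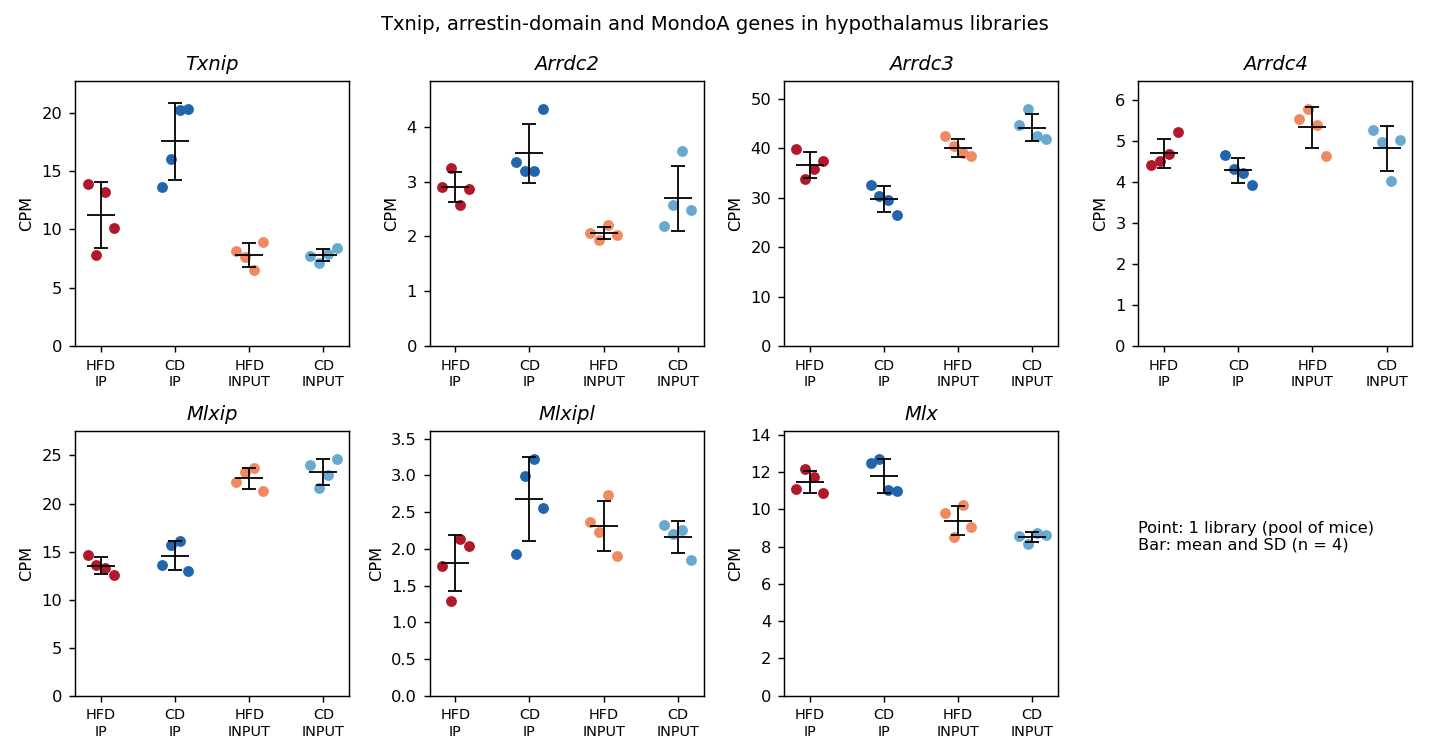
CPM of the 7 genes in hypothalamus libraries (vertical axes from 0, in CPM), by group from left to right HFD IP, CD IP, HFD INPUT and CD INPUT. Points are libraries (pools of 4 mice) and bars are the mean with SD (n = 4). Mlxip lies lower in all IP libraries than in any INPUT library, Mlx higher, and Arrdc3 in IP shows HFD pools at 33.7 to 39.9 CPM above CD pools at 26.4 to 32.7 CPM.

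The pathway around these genes was taken from lists that were chosen with earlier results of these data known, and each is described by counts and medians beside the background of 83.8 percent. All 10 genes of the thioredoxin system, the redox partners that Txnip binds or neighbours, were higher in IP, with a median log2 fold change of 0.48. The peroxiredoxin Prdx1 rose by 1.62 ± 0.05 and the mitochondrial thioredoxin Txn2 by 1.24 ± 0.04, and the mitochondrial peroxiredoxin Prdx3 by 0.80 ± 0.05. Of 7 NEDD4-family ligases, 5 were higher and 1 lower (median 0.24), with Wwp1 at 0.85 ± 0.05 and Nedd4l at -1.15 ± 0.05. Of 10 genes of the MAX and MLX network, 5 were higher and 4 lower (median 0.16). The MAX-binding repressor genes Mxd4 (1.30 ± 0.05), Mxi1 (1.01 ± 0.04) and Mxd1 (0.81 ± 0.06) rose, and Mga fell by 0.46 ± 0.04.
Of 12 further MondoA and ChREBP targets tested, 7 were higher and 5 lower (median 0.50). The lipogenic genes Scd1 (2.42 ± 0.07), Mid1ip1 (1.99 ± 0.05) and Fasn (1.19 ± 0.06) rose, while Elovl6, a fatty acid elongase, fell by 1.04 ± 0.05. Genes of glucose entry split 5 higher and 5 lower of 10. Of those with the smallest p, the glucose 6-phosphate dehydrogenase gene G6pdx rose by 0.82 ± 0.04, while the neuronal transporter Slc2a3 (-1.48 ± 0.06), hexokinase Hk2 (-1.54 ± 0.08) and the AMPK subunit Prkaa2 (-1.43 ± 0.05) fell. Slc2a1, which encodes GLUT1 and was picked out here after its value was seen, rose by 1.98 ± 0.08. Of 13 glucocorticoid-responsive genes, 10 were higher and 3 lower (median 1.44), with Pdk4 among the higher at 2.21 ± 0.05. Pdk4 was not the largest rise of the list, as Mt2 averaged 1289 CPM in HFD IP against 159 CPM in HFD INPUT. Of 4 arrestin relatives Arrb1, encoding beta-arrestin 1, rose by 1.30 ± 0.04 and 3 were lower. Astrocyte markers rose in 9 of 9 and endothelial markers in 10 of 10, and their part in any of these values was not tested.

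After 3 days of HFD none of the 7 genes passed the test in the precipitated RNA, although DESeq2 called Txnip, lower with HFD, and Arrdc3, higher with HFD. The diet comparison asks what short high-fat feeding did to RNA on the tagged ribosomes. With edgeR's quasi-likelihood test 0 of 7 passed at adjusted p under 0.05, where 0.0883 percent of 15858 genes did. At an unadjusted p under 0.05 there were 3 of 7, and 1831 of the 15858 genes. DESeq2 gave 5 of the 7 an adjusted p and called 2, Txnip and Arrdc3. It called 183 of 26549 genes with any count. Such DESeq2 totals, here and below, include genes that can lack an adjusted p, so a share taken from them can be too low. For Txnip, HFD IP pools had 13.9, 7.80, 13.2 and 10.1 CPM, against 13.6, 16.1, 20.2 and 20.3 CPM in CD IP pools. The ranges met only where the lowest CD pool sat below the highest HFD pool. The log2 fold change was -0.62 ± 0.19 with a 95 percent interval of -1.04 to -0.20 (unadjusted p = 0.0086, adjusted p = 0.25), and it stayed between -0.74 and -0.48 over 13 alternatives, 2 of which passed. With DESeq2 its adjusted p was 0.018, and over the 13 alternatives the adjusted p ran from 3.5e-06 (no filter on low counts) to 0.53.
Arrdc3 had 39.9, 33.7, 35.8 and 37.4 CPM in HFD IP pools, against 32.7, 30.3, 29.6 and 26.4 CPM in CD IP pools. The diets did not overlap, which held for 1 of the 7 genes and for 6.23 percent of all genes tested. The log2 fold change was 0.32 ± 0.08, interval 0.15 to 0.49 (unadjusted p = 0.00077, rank 100 of 15858; adjusted p = 0.12). With DESeq2 its adjusted p was 0.026, and over 13 alternatives it ran from 0.014 to 0.33, 3 of which passed.
The remaining genes gave smaller or noisier values. Mlxipl had 1.29 to 2.14 CPM with HFD, against 1.93 to 3.22 CPM with CD, a log2 difference of -0.54 ± 0.20 (adjusted p = 0.30). Arrdc2 differed by -0.26 ± 0.16 and Arrdc4 by 0.15 ± 0.13. Mlxip differed by -0.09 ± 0.09 and Mlx by -0.03 ± 0.09, with intervals of -0.29 to 0.10 and -0.22 to 0.17 that did not reach the size of their differences between IP and INPUT. Beside these values, summed oligodendrocyte markers were 174.8 to 242.9 CPM in HFD IP, against 250 to 274.1 CPM in CD IP, and summed astrocyte markers overlapped between the diets. Their part in the diet values was not tested. The antisense gene Gm15441, which spans Txnip, had 0.12 ± 0.12 CPM in HFD IP and 0.36 ± 0.19 CPM in CD IP, and its part in the Txnip value was not tested.

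In the whole lysate Txnip had close to equal means, 7.81 ± 1.03 CPM with HFD and 7.78 ± 0.50 CPM with CD (SD, n = 4 each). Of the 7 genes 0 passed edgeR's quasi-likelihood test in INPUT, where 0.0355 percent of 16879 genes did. At an unadjusted p under 0.05 there were 2 of 7, and 1258 of the 16879 genes. DESeq2 called 0 of the 7, and 50 of 28869 genes with any count. With the pool number as a block 43 genes passed, against 6 without it, and again 0 of the 7. In that blocked fit Arrdc3 gave -0.14 ± 0.05 (edgeR, adjusted p = 0.34). The differences that follow come from the fit without the block. Txnip had 6.49 to 8.93 CPM with HFD and 7.15 to 8.38 CPM with CD, a log2 difference of 0.00 ± 0.11 with an interval of -0.22 to 0.23. Arrdc3 had 38.4 to 42.5 CPM with HFD, against 41.8 to 47.9 CPM with CD, a difference of -0.14 ± 0.06 (adjusted p = 0.63) and thus on the other side of 0 from its IP value. Arrdc2 differed by -0.39 ± 0.17 (adjusted p = 0.65), with 1.94 to 2.21 CPM with HFD and 2.18 to 3.55 CPM with CD. The ranges of all 7 genes overlapped between the diets, where 4.54 percent of all genes tested did not overlap. Arrdc4, Mlxip, Mlxipl and Mlx differed by 0.14 ± 0.12, -0.04 ± 0.07, 0.10 ± 0.17 and 0.14 ± 0.09 in that order.

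Whether the diet effect differed between IP and INPUT was tested directly as an interaction. It was called for 0 of the 7 genes, as for 0 percent of the 17592 genes tested with edgeR's quasi-likelihood test. At an unadjusted p under 0.05 there were 3 of the 7 genes, and 755 of the 17592. DESeq2 called 0 of 7, and 6 of 30215 genes with any count. Arrdc3 had the second smallest p of all genes (rank 2 of 17592; edgeR, unadjusted p = 0.00015, adjusted p = 0.86), with an interaction of 0.44 ± 0.10 on the log2 scale. With IP and INPUT libraries matched by number, which the labels do not give as a shared pool and the interaction test does not use, its log2 ratio of IP to INPUT was -0.27 to -0.04 with HFD, against -0.66 to -0.45 with CD. These ratios did not overlap between the diets, as for 3.65 percent of all genes, and no other of the 7 genes showed this. Over 20 alternatives the Arrdc3 interaction stayed between 0.39 and 0.49 and its adjusted p between 0.080 and 1. For Txnip the ratio was 0.03 to 1.02 with HFD, against 0.81 to 1.36 with CD, an interaction of -0.64 ± 0.23 (adjusted p = 1.00). Mlxipl gave -0.65 ± 0.27 (adjusted p = 1.00), and the other 4 genes lay between -0.19 and 0.11. In the CD pools, Txnip was therefore enriched and Arrdc3 depleted in IP by more than in the HFD pools, without passing the test.

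**Figure D2:**
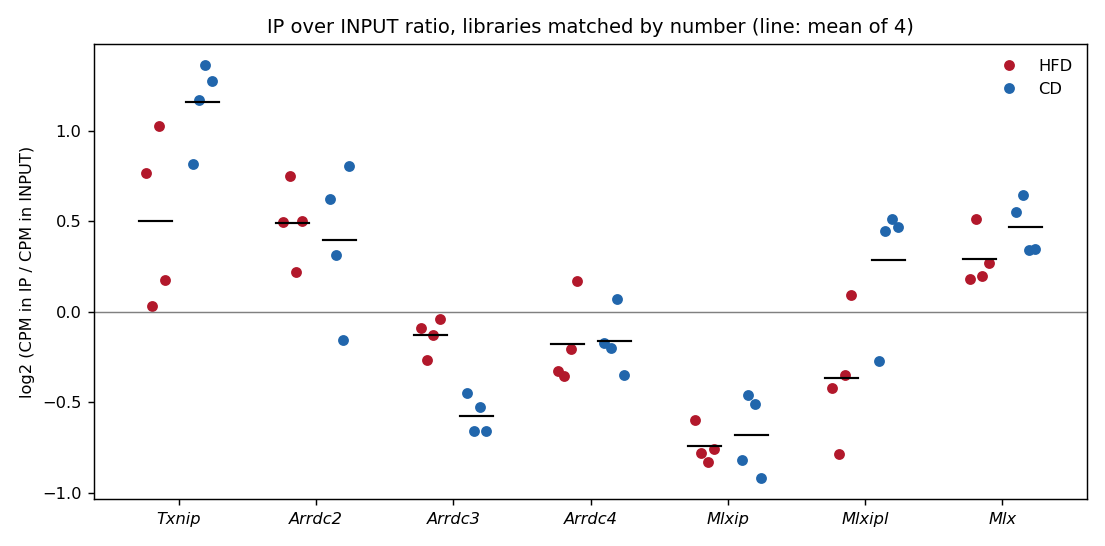
Log2 ratio of CPM in IP to CPM in INPUT for libraries matched by number, an assumed pairing (vertical axis), for the 7 genes (horizontal axis), with HFD left of CD and the mean as a line. Arrdc3 is the gene whose diets do not overlap, at -0.27 to -0.04 for HFD and -0.66 to -0.45 for CD.

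None of the listed pathways gave a gene past the threshold for diet by edgeR's quasi-likelihood test. That was 0 of 67 genes over the 8 lists in IP and 0 of 70 in INPUT. At an unadjusted p under 0.05 there were 18 in IP and 10 in INPUT. Over all genes there were 1831 of 15858 in IP and 1258 of 16879 in INPUT. DESeq2 called 6 listed genes in IP, among them Khk, Fasn, Slc2a1 and Insr, and 3 in INPUT, among them Plin4. Of genes with any count it called 183 of 26549 in IP and 50 of 28869 in INPUT. The values that follow, with their adjusted p, come from edgeR. Among the further MondoA and ChREBP targets in IP, the smallest p-values belonged to Khk, encoding ketohexokinase, at -0.49 ± 0.13 (adjusted p = 0.13), and Fasn, encoding fatty acid synthase, at -0.31 ± 0.08 (adjusted p = 0.16). The list's median was -0.14 in IP and -0.01 in INPUT, against 0.00 over all genes in both. In the glucose entry list, Slc2a1 gave -0.32 ± 0.09 (adjusted p = 0.16) and the insulin-responsive transporter Slc2a4 -0.72 ± 0.20 (adjusted p = 0.17). In the glucocorticoid list, Plin4 gave -1.30 ± 0.29 in IP (adjusted p = 0.080) and -1.52 ± 0.26 in INPUT (adjusted p = 0.062), and the list medians were -0.19 and -0.17. Insr, encoding the insulin receptor, gave -0.27 ± 0.07 in IP (adjusted p = 0.13). The thioredoxin system had a median of 0.09 in IP, and the NEDD4-family ligases 0.00.

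In cEND cells exposed to 10 µM WZB117, Arrdc3 RNA was 2.24 to 3.36 times its DMSO level in each passage, whereas Txnip and Arrdc4, the classic glucose-responsive members, stayed within 0.93 to 1.28 times. This comparison asks how RNA of the members differs with the GLUT1 inhibitor, and only Txnip and Arrdc4 among them are described above as restraining glucose entry. All comparisons with DMSO share the same 3 DMSO libraries. At DMSO, 0.5 µM and 10 µM, Arrdc3 had 48.6, 49.3 and 163.1 CPM at passage 12. At passage 14 it had 83.5, 85.6 and 187.1 CPM in the same order, and at passage 18 108.3, 117.2 and 259.4 CPM. The 10 µM libraries lay above all DMSO libraries, which was so for 1 of the 6 genes tested and for 15.6 percent of all genes, and the 0.5 µM libraries lay within 1.01 to 1.08 times DMSO.
Without a term for passage, the log2 fold change of Arrdc3 at 10 µM was 1.34 ± 0.36 and missed the threshold (edgeR's quasi-likelihood test with Benjamini-Hochberg adjustment, adjusted p = 0.15). In this fit 0 of the 6 genes passed, where 1.27 percent of 15466 genes did. At an unadjusted p under 0.05 there was 1 of the 6, and 1728 of the 15466 genes. DESeq2 called 1 of the 6, Arrdc3 (adjusted p = 0.0032), and 504 of 26027 genes with any count. With passage as a block, which the labels give and which compares libraries of the same passage, Arrdc3 rose by 1.39 ± 0.13 (adjusted p = 0.00034, interval 1.09 to 1.70). It was rank 160 of 15466 by size of fold change and rank 721 by p. In this fit 18.5 percent of all genes passed, and 2 of the 6. Leaving out each passage in turn from the blocked fit gave 1.23 to 1.52 for Arrdc3, with adjusted p of 3.4e-08 to 0.026, while without the block no such fit passed. Against 0.5 µM, the 10 µM level of Arrdc3 was higher by 1.34 ± 0.13 with the block (adjusted p = 0.00043; 1.27 ± 0.35 and adjusted p = 0.17 without it). That comparison called 17.8 percent of all genes with the block and 1.27 percent without it.
The other gene past the threshold with the block was Mlxip. It had 23.5, 23.1 and 21.4 CPM at 10 µM, against 30.3, 33.0 and 21.5 CPM with DMSO, at passages 12, 14 and 18. The ratio was 0.78, 0.70 and 0.99, so that the passage 18 pair was nearly level. Mlxip fell by 0.29 ± 0.09 with the block (adjusted p = 0.024; -0.32 ± 0.19 and adjusted p = 0.65 without it). The blocked call was lost without passage 12 (-0.24, adjusted p = 0.28) and without passage 14 (-0.17, adjusted p = 0.35).

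**Figure D3:**
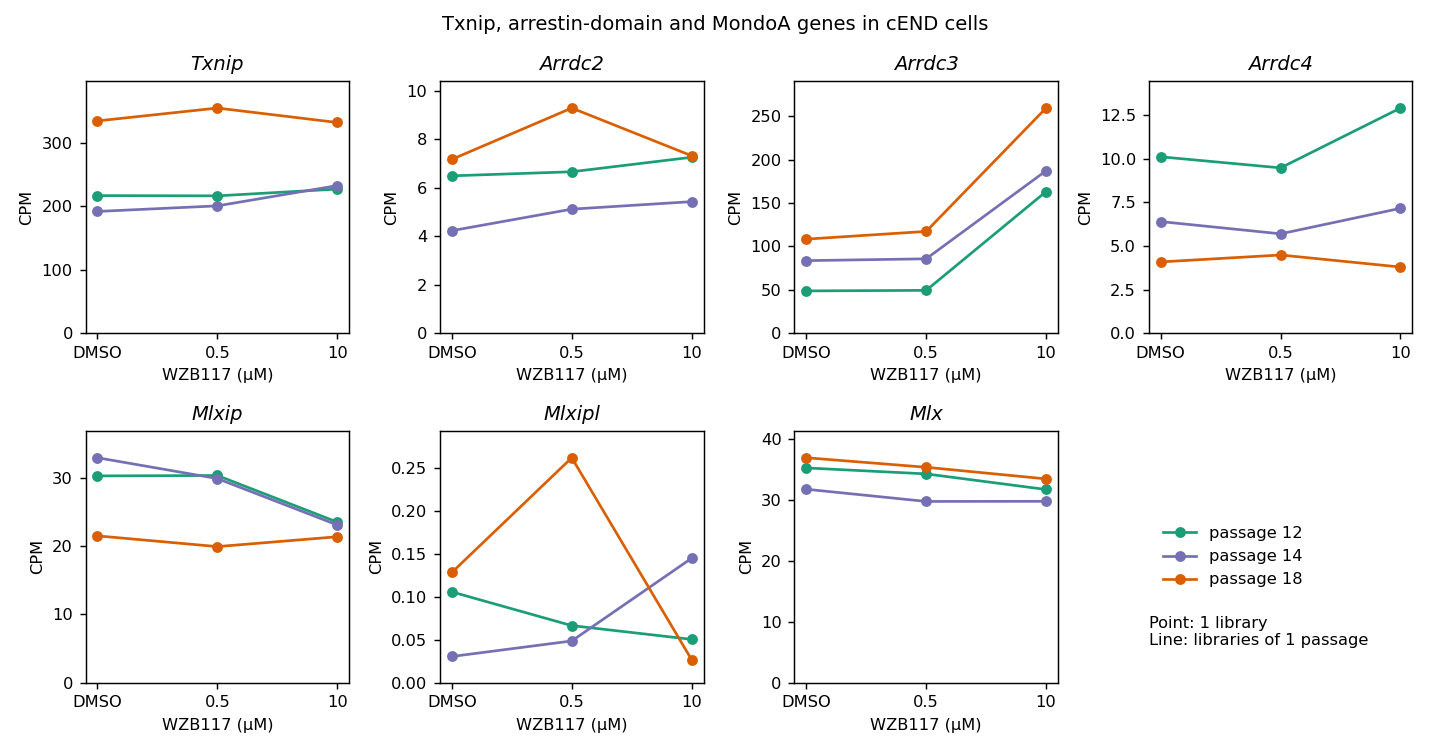
CPM of the 7 genes in cEND cells (vertical axes from 0) at DMSO, 0.5 and 10 µM WZB117 (horizontal axes, doses evenly spaced), with a line for each passage and a point for each library. Arrdc3 climbs at 10 µM in all 3 passages, to 163.1, 187.1 and 259.4 CPM, while the Txnip lines stay near level and passage 18 sits highest, at 332.4 to 355.2 CPM.

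Txnip had 227.3, 232.8 and 332.4 CPM at 10 µM, against 217.0, 192.0 and 334.9 CPM with DMSO, at passages 12, 14 and 18. With the block its difference was 0.11 ± 0.07 (adjusted p = 0.28), and the interval of -0.02 to 0.25 lies well below the change of Arrdc3. Arrdc4 had 12.9, 7.16 and 3.79 CPM at 10 µM, against 10.1, 6.40 and 4.09 CPM with DMSO, a blocked difference of 0.16 ± 0.14 with an interval of -0.13 to 0.45. Arrdc2 was 1.02 to 1.28 times DMSO, at 0.18 ± 0.14 (interval -0.11 to 0.47), on the same side of DMSO at all 3 passages, as were Arrdc3, Mlxip and Mlx and 46.9 percent of all genes. Mlx was 0.90 to 0.94 times DMSO, at -0.13 ± 0.07 (adjusted p = 0.24). Mlxipl, with 30 counts in the 9 libraries together, was too low to be compared.
At 0.5 µM, 0 of the 6 genes passed with or without the block, as for 0 percent of the 15466 genes in both fits. Without the block, 0 of the 6 had an unadjusted p under 0.05, where 55 of the 15466 genes did. DESeq2 called 0 of 6, and 0 of 26027 genes with any count. With the block, Arrdc3 differed by 0.06 ± 0.13 (interval -0.25 to 0.36), Txnip by 0.05 ± 0.07 (-0.09 to 0.18), and the other 4 genes lay between -0.08 and 0.23. The interval of Arrdc3 at 0.5 µM lies below that at 10 µM.

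In the listed pathways, the repressor gene Mxi1, the hexokinase gene Hk2 and the cell cycle inhibitor gene Cdkn1a were among those that rose at 10 µM. These values come from the fit with passage as a block, against the background of 18.5 percent (9.23 percent higher and 9.29 percent lower), and share the DMSO libraries with the values above. Insr, encoding the insulin receptor, rose by 0.23 ± 0.07. Of 7 NEDD4-family ligases Smurf1 rose by 0.52 ± 0.07 and Itch, a known partner of alpha-arrestins, by 0.19 ± 0.06. Of 4 arrestin relatives, the beta-arrestin 2 gene Arrb2 fell by 0.37 ± 0.08 and the visual arrestin gene Sag by 0.43 ± 0.08.
Of 10 genes of the MAX and MLX network 4 rose and 2 fell (median 0.03). Mxi1, a MAX-binding repressor that opposes MYC, had 59.0, 44.0 and 40.2 CPM at 10 µM, against 8.71, 13.4 and 10.1 CPM with DMSO, and rose by 2.15 ± 0.22 (adjusted p = 0.0021; adjusted p = 0.0025 without the block). Mxd1 rose by 1.56 ± 0.11 and Mxd4 by 0.46 ± 0.06, and both encode repressors that can pair with Mlx as well as with Max. Mycn fell by 1.09 ± 0.29. Of 11 further MondoA and ChREBP targets 1 rose and 2 fell (median -0.06). Klf10 rose by 0.58 ± 0.06, and the lipogenic genes Mid1ip1 and Elovl6 fell by 0.36 ± 0.08 and 0.24 ± 0.07. Of 8 genes of glucose entry 5 rose (median 0.45), among them Hk2 (1.32 ± 0.07), Hk1 (0.74 ± 0.07), Gpi1 (0.53 ± 0.07) and G6pdx (0.37 ± 0.07). Slc2a1, the gene of the inhibited transporter, rose by 1.93 ± 0.19 and was named after its value was seen. The glucocorticoid list had 5 higher and 1 lower of 8 (median 0.42), with Ddit4 at 0.87 ± 0.07 and Cdkn1a, the largest fold of the list, at 1.92 ± 0.20. The 1 lower gene was Fkbp5, at -0.24 ± 0.07. The thioredoxin system had 2 higher, Txnrd1 (0.34 ± 0.07) and Prdx5 (0.23 ± 0.07), of 10. Over all genes the median was -0.02. Without the block, Mxi1, Slc2a1, Hk1, Gpi1 and Cdkn1a also passed. Summed endothelial markers overlapped between the doses, at 3955 to 5395 CPM with 10 µM and 3910 to 4985 CPM with DMSO. With passage as a block, Flt1 (0.30 ± 0.06) and Cldn5 (0.20 ± 0.07) were higher at 10 µM and Kdr (-0.34 ± 0.06) was lower, of 8 such markers tested, and their part in the values above was not tested. At 0.5 µM, 0 of 63 genes of the 8 lists passed edgeR's quasi-likelihood test, 0 had an unadjusted p under 0.05, and DESeq2 called 0.

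**Figure D4:**
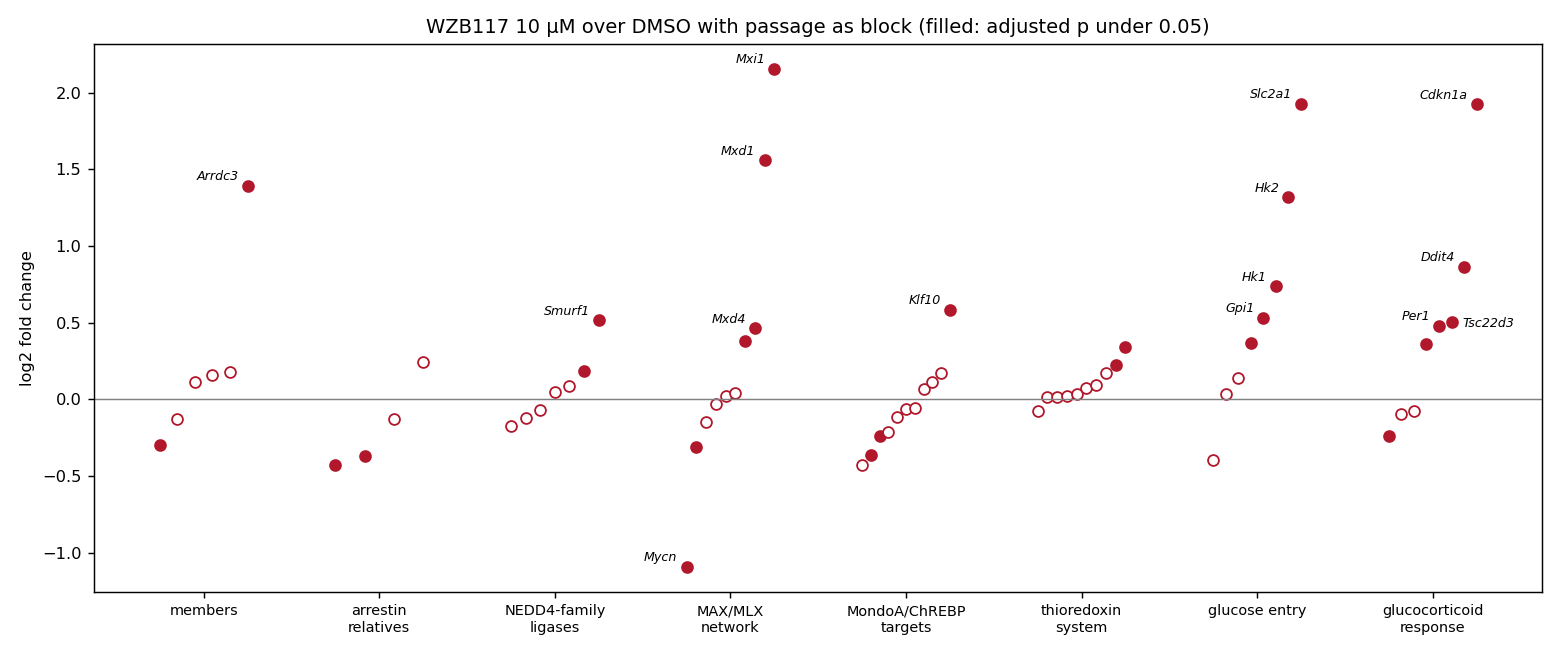
Log2 fold change at 10 µM WZB117 over DMSO with passage as a block (vertical axis) for the tested genes of the members and of 7 of the pathway lists (horizontal axis). Filled points have an adjusted p under 0.05, and names are given to filled points beyond 0.45 in size. Arrdc3 at 1.39 stands apart from the other 5 members, and Mxi1 (2.15), Slc2a1 (1.93), Cdkn1a (1.92) and Mxd1 (1.56) are higher still.

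Across passages the arrestin-domain genes of cEND cells differed in opposite directions: Txnip and Arrdc3 were higher at passage 18 than at passage 12, and Arrdc4 was lower. With treatment in the fit, 4 of 6 genes passed for passage 18 against 12, where 35.1 percent of all genes did. Over the 3 treatments Txnip averaged 340.9 ± 12.5 CPM at passage 18 and 220.3 ± 6.06 CPM at passage 12 (SD, n = 3), without overlap, and rose by 0.63 ± 0.07 (adjusted p = 2.6e-08). Arrdc4 had 3.79 to 4.48 CPM at passage 18, against 9.49 to 12.9 CPM at passage 12, and fell by 1.39 ± 0.14 (adjusted p = 1.6e-08). Arrdc3 rose by 1.01 ± 0.13 (adjusted p = 0.00080), its 3 treatments giving 108.3 to 259.4 CPM at passage 18 and 48.6 to 163.1 CPM at passage 12. Mlxip, at 19.9 to 21.5 CPM against 23.5 to 30.4 CPM, fell by 0.41 ± 0.09 (adjusted p = 0.0010). Arrdc2 and Mlx differed by 0.21 ± 0.14 and 0.06 ± 0.07 and did not pass.
At passage 14 against 12, 3 of 6 passed, where 21.6 percent of all genes did. Arrdc4 fell by 0.76 ± 0.14 (adjusted p = 0.00015), with 5.70 to 7.16 CPM at passage 14 against 9.49 to 12.9 CPM at passage 12. Arrdc3 rose by 0.57 ± 0.13 (adjusted p = 0.019) and Arrdc2 fell by 0.47 ± 0.14 (adjusted p = 0.016), whereas Txnip differed by -0.08 ± 0.07. Arrdc4 thus stepped down at each later passage and Arrdc3 stepped up, while Txnip differed at passage 18.
At passage 18 against 14 all 6 passed, where 33.1 percent of all genes did. Txnip rose by 0.71 ± 0.07, Arrdc2 by 0.69 ± 0.14, Arrdc3 by 0.43 ± 0.13 and Mlx by 0.21 ± 0.07. Arrdc4 fell by 0.63 ± 0.14 and Mlxip by 0.44 ± 0.09. Without treatment in the fit, Arrdc3 passed in none of the 3 passage comparisons (adjusted p = 0.41, 0.77 and 0.72 for passage 18 against 12, 14 against 12 and 18 against 14), and Arrdc2 was lost at passage 14 against 12 (0.073) and Mlx at passage 18 against 14 (0.074). Leaving out 1 library at a time also ended some calls. At passage 14 against 12, Arrdc2 was lost without the DMSO library of passage 12 or 14, the 0.5 µM library of passage 14 or the 10 µM library of passage 12 (adjusted p = 0.072 to 0.094). Arrdc3 was lost there without the DMSO library of passage 12 or 18, or without all 3 libraries of passage 18 (0.060 to 0.089). At passage 18 against 14, Mlx was lost without the DMSO or the 0.5 µM library of passage 14 or of passage 18 (0.056 to 0.13), and Arrdc3 without the DMSO or 0.5 µM library of passage 18 or the 10 µM library of passage 14 or 18 (0.054 to 0.15). Each passage is 1 culture history of 1 line, so passage and culture cannot be told apart.
Of all 15466 genes tested, 2459 passed as higher at passage 18 than at passage 12 and 2963 as lower. Among the listed genes at passage 18 against 12, Hk2 fell by 1.38 ± 0.07 and Prkaa2 by 2.21 ± 0.25, in a glucose entry list of 8 with 4 lower. The MAX and MLX network had 1 higher, Mxd4 at 0.50 ± 0.06, and 4 lower of 10. Of 11 further targets 3 were higher, with Klf10 at 0.68 ± 0.06 and 4 were lower. Of 7 NEDD4-family ligases 3 were lower, with Smurf1 at -0.41 ± 0.07. All 8 endothelial markers tested were higher at passage 18 than at passage 12 (median 0.36), and their part in the values of the 6 genes was not tested.

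**Figure D5:**
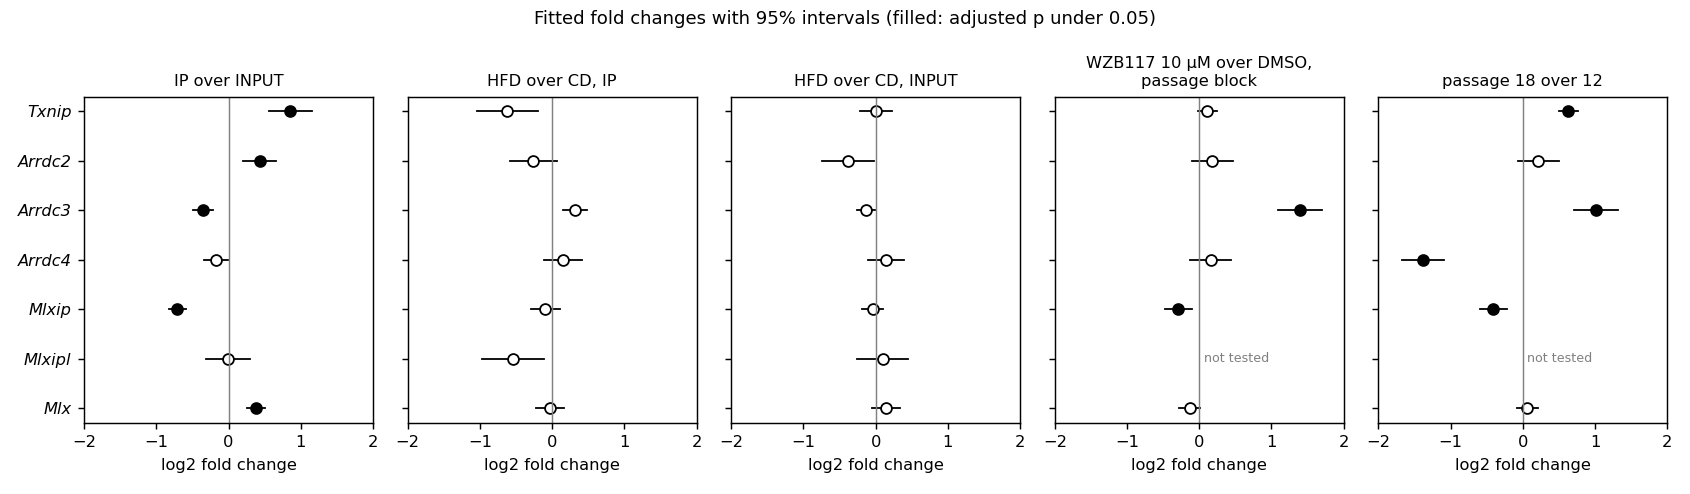
Fitted log2 fold changes (horizontal axes) with 95 percent intervals for the 7 genes (rows) in 5 comparisons; filled points have an adjusted p under 0.05. Arrdc3 passes in IP over INPUT (-0.35), at 10 µM WZB117 with the passage block (1.39) and at passage 18 over 12 (1.01), and no gene passes for diet.

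The likeness of other genes to the arrestin-domain members was described by Pearson's r of log2(CPM + 0.5), with no test, since libraries share passages and treatments. Over the 16 hypothalamus libraries, after subtracting the mean of each fraction, Txnip was most like Trim67 (r = 0.87), Pcsk5, Dlgap2, Zxdb and Cpeb3. Arrdc2 was most like Gnl1 (r = 0.89), Llgl1, Kifc2, Sart1 and Arhgef10l. Arrdc3 was most like Nubp1 (r = 0.82), Zfp971, Rn7s2, Ttll5 and Diaph3. Arrdc4 was most like Msx1 (r = 0.86), Bbs12, Apobec1, Cald1 and Gas2l3. Within the group, Txnip had r = 0.66 with Mlxipl and -0.56 with Arrdc3, and Arrdc2 had r = -0.77 with Arrdc4.
Over the 9 cEND libraries, Arrdc3 was most like Spag9 (r = 0.995), Hid1, Hspa4l, Dcaf12 and Saraf. Txnip was most like Cdc42ep2 (r = 0.991), Jmjd8, H2-T23, Pcdhb20 and Nck1. Arrdc2 was most like Duox2 (r = 0.97), Cd63, Renbp, Ptgr2 and Zdhhc17. Arrdc4 was most like Bmp1 (r = 0.989), Lgr4, Uba6, Agpat2 and Snrnp200. Within the group, Txnip had r = -0.89 with Mlxip and 0.50 with Arrdc3. These values over few libraries are a description only.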

How the data were processed

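Hypothalamic bacTRAP libraries (HFD IP, CD IP, HFD INPUT and CD INPUT, 4 each) and cEND libraries (DMSO, 0.5 µM and 10 µM WZB117 at passages 12, 14 and 18) were grouped by the labels. The authors deposited a table of estimated counts per gene for each experiment, in which 17.3 and 19.8 percent of values are not whole. The genome build was GRCm38 per the submitters' processing notes, and the aligner, counter, annotation and strand setting are not stated in those sources. Depth was 27886932 to 42751943 counts per hypothalamus library and 27344505 to 41253473 per cEND library, and no 2 libraries of the same group were alike within sampling noise.

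Counts were rounded, filtered with filterByExpr by group, scaled by TMM and tested with edgeR 4.0.16 (quasi-likelihood, robust; R 4.3.3, limma 3.58.1) over all genes with Benjamini-Hochberg adjustment, at an adjusted p of 0.05. Diet was tested within a fraction, IP against INPUT with diet as a term, WZB117 over the 9 libraries, and passage with treatment as a term. Exon lengths and overlaps came from GENCODE M21, and promoters from RefSeq (GRCm38.p6). Tables were joined with Python 3.11.15 and pandas 2.3.3. The statistics were tested on simulated data first.

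Same-numbered cEND libraries share a passage per the labels, and their deviations correlated at r = 0.60 to 0.83. Same-numbered INPUT pools of the diets correlated at 0.13 to 0.22, all above 0.1, and IP pools of the diets at -0.01 to 0.03. The diet differences given for INPUT come from the fit without pairs unless the block is named. The fit with the pool number as a block is given beside it for INPUT. IP and INPUT libraries of a number, which the labels do not tie to 1 pool, correlated at 0.06 to 0.28.

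The members and lists were chosen with earlier results of these data known. All 7 members are named in each comparison, and of each list up to 4 genes that pass with the smallest p, or up to 2 of smallest p where none passes; 1 listed gene is not reported here. For likeness the 5 genes of highest r are named, among genes with an average log2 CPM of at least 1. Alternatives were DESeq2 1.42.0, RLE factors, no filter, the replicate block, all 16 libraries or only 2 groups in the fit, and each replicate left out. DESeq2 with the passage block, and the block without each passage, were chosen after seeing the data.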

Additional observations from a re-analysis of the deposited data

Results flagged for a closer look

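Arrdc2 reached 4.32 CPM in pool 4 of CD IP, and the other 3 pools of that group lay between 3.19 and 3.36 CPM. The gap to the nearest pool was 0.85 of the range of the group. It was 1 of 28 groups of 4 pools tested in this way for the 7 genes, and chance alone gives such a value in about 1 in 20 groups. Without this library the diet difference of Arrdc2 in IP was -0.15 on the log2 scale, against -0.26 with it, and it did not pass the test in either case.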

How the results depend on the processing

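Of 1090 values of the genes under the alternatives, 989 kept their direction and side of the threshold, 27 newly passed, 20 no longer passed and 54 changed sign, and each that changed sign had not passed before. Genes past the threshold for diet in IP numbered 14, against 183 with DESeq2, 398 with no filter on low counts, 52 with the replicate block, 121 with all 16 libraries in 1 fit, and 5 to 50 when a replicate was left out. For diet in INPUT they numbered 6, against 50, 116, 43, 2 and 2 to 17 in the same order. For the interaction they numbered 0, against 6 with DESeq2, 1 with no filter, 1 with the block and 0 to 1 without a replicate. For 10 µM against DMSO they numbered 197, against 504 with DESeq2, 2864 with the passage block, 2579 with DESeq2 and the block, 1628, 2412 and 1998 with the block and passage 12, 14 or 18 left out, and 0 to 195 without a replicate. For 10 against 0.5 µM they numbered 197, against 483, 2759, 2446, then 1493, 2285 and 2049, and 0 to 152 in the same order, and 79 with only the 2 groups in the fit. For 0.5 µM against DMSO they numbered 0, against 55 with DESeq2 and the block and 2 to 6 with the block and a passage left out. Without treatment in the fit (no replicate block), passage 18 against 12, 14 against 12 and 18 against 14 gave 3269, 1623 and 2924 genes, and 14 against 12 gave 2086 to 3668 without a replicate. The causes were not tested. In the IP against INPUT comparison the median was -0.32 with DESeq2, over 30215 genes with any count. It was -0.02 with edgeR, after the filter on low counts.

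Values that changed sign were all near 0 or in small designs. For IP against INPUT, Mlxipl gave 0.0206 with no filter and -0.0728 to 0.0749 without a replicate. For diet in IP, Mlx gave -0.0635 to 0.0063 without a replicate. For diet in INPUT, Txnip gave -3e-04 with the replicate block and -0.0744 to 0.0817 without a replicate, and Mlxipl -0.0016 to 0.18. For the interaction, Arrdc2 gave -0.0495 to 0.22 and Arrdc4 -0.0717 to 0.0679. Without a replicate, 10 µM against DMSO gave -0.11 to 0.37 for Txnip, -0.0358 to 0.32 for Arrdc2 and -0.32 to 0.61 for Arrdc4. The 0.5 µM dose against DMSO gave -0.25 to 0.34 for Txnip, -0.0248 to 0.42 for Arrdc2, -0.25 to 0.35 for Arrdc3, -0.42 to 0.32 for Arrdc4, -0.24 to 0.0916 for Mlxip and -0.12 to 0.0111 for Mlx, and with the block Arrdc4 gave -0.12 to 0.0241. The 10 against 0.5 µM comparison gave -0.17 to 0.35 for Txnip, -0.26 to 0.19 for Arrdc2 and -0.26 to 0.64 for Arrdc4, and with the block -0.0083 to 0.13 for Txnip and -0.13 to 0.0923 for Arrdc2. Mlxip at passage 14 against 12 gave -0.0402 to 0.12. The block changed no call of the 7 genes in the hypothalamus. Low counts limit Mlxipl most, at 1 to 9 counts per cEND library.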
